A study of Mus musculus with 16 samples.

Results

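The genes described here encode the respiratory chain and the ATP synthase and are carried in the nucleus. They were chosen by symbol from the deposited counts: names starting with Nduf and a subunit letter and number, Cox4 to Cox8, Uqcr or Atp5, together with Cyc1 and Sdha to Sdhd. Assembly factors of the Ndufaf series, and names ending in -ps or Rik, were left out. This gave 83 of 21442 genes, which were split by complex into 34 genes of complex I, 4 of complex II, 9 of complex III, 19 of complex IV and 17 of complex V, the ATP synthase. Ndufa4 and Ndufa4l2 were placed with complex IV, where the Ndufa4 protein is known to sit. Atp5s and Atp5sl carry an ATP synthase name but are not subunits of the enzyme, and they were kept because the symbol rule takes them. Of the 83 genes, 78 passed the filter on low counts. The other 5, Cox4i2, Cox6a2, Cox8b, Cox8c and Ndufa4l2, had 3 to 18 reads in all 16 libraries together.

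RNA was sequenced from cells sorted out of the distal colon of mice 6 to 8 weeks old. All mice carried RedMUC298trTg, a transgene whose mCherry signal was used to sort goblet cells, which secrete the mucus of the gut. The group SpdefKO_GC held mCherry-positive goblet cells from SpdefKO_RedMUC298trTg mice, and WT_GC held the same fraction from RedMUC298trTg mice. SpdefKO_EC and WT_EC held the mCherry-negative epithelial cells of the same 2 kinds of mice. The labels call these cells colonocytes; the fraction was defined by the absence of the reporter and can hold other cell types. Spdef encodes a transcription factor known for the maturation of secretory cells. There were 4 libraries per group, which are named by group and library number. Whether 2 libraries of one group share a mouse is not in the labels, so the p-values below reflect library-to-library spread, some of which may be technical. RNA of the goblet fraction went over MinElute columns and that of the other fraction over Mini columns, so purification and fraction cannot be told apart.

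Libraries held 10085637 to 17111987 reads on genes, and the 83 genes took 1.19–1.60% of them. Spdef was not lower in the libraries labelled SpdefKO_GC: 368, 373, 446 and 294 CPM, against 279.8, 306, 281 and 315 CPM in WT_GC (log2 fold change 0.33 ± 0.14, adjusted p = 0.116). The genotype of the libraries labelled SpdefKO therefore rests on their labels, here and wherever a direction between genotypes is given. CPM values divide each count by the library's gene total after TMM scaling, which aligns libraries on the bulk of their genes. The sort was plain in the markers: the summed level of 8 goblet genes was 53470–65761 CPM in SpdefKO_GC and 48130–55022 CPM in WT_GC, against 504–549 CPM in SpdefKO_EC and 542–729 CPM in WT_EC. For 8 absorptive colonocyte genes the sums were 876–1099 CPM in SpdefKO_GC and 486–629 CPM in WT_GC, and 8659–10725 CPM in SpdefKO_EC and 9693–10946 CPM in WT_EC. Library SpdefKO_GC 5 stood apart in the genes described here. Its median over the 78 tested genes was -0.28 on the log2 scale relative to the WT_GC mean, while the other 3 SpdefKO_GC libraries were at -0.06, -0.13 and -0.13.

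The respiratory chain passes electrons from NADH and succinate to oxygen in the inner mitochondrial membrane and pumps protons on the way. Complex I takes the electrons of NADH and complex II those of succinate; complex III hands them to cytochrome c, and complex IV to oxygen. The ATP synthase lets the protons back and makes ATP from the gradient. Most subunits are nuclear genes, and a small set of core subunits is encoded in mitochondrial DNA; those were not analysed here. Absorptive colonocytes are known to burn butyrate made by bacteria and so to lean on this chain, while goblet cells spend much of their effort on making and secreting mucins. In a bulk sample of sorted cells, fewer cells of a type and less RNA per cell cannot be told apart.

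Promoters of respiratory genes are known for sites of NRF1, of ETS factors such as GABPA, of ESRRA and of YY1, and SPDEF is itself an ETS factor. The RefSeq windows on GRCm38.p6, 250 bases before to 50 bases after the annotated start, were present for 67 of the 83 genes (73 windows). The sequences of Ndufc1, Cox7a2 and Cox8a are shown because these 3 genes kept a different genotype response in goblet cells and other cells under every setting tried, and that of Ndufa4 because it stood opposite to most of complex IV between the fractions. All 4 lie on the minus strand and are written 5′ to 3′ along the gene; capitals mark matches to the motifs named after them.
Ndufc1, chr3:51408906-51409205: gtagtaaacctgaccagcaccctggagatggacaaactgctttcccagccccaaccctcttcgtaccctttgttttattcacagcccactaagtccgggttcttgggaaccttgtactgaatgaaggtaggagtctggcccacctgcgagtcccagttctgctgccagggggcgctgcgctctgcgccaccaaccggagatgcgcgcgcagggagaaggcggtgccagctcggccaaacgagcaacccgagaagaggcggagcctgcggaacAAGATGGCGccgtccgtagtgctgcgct
Cox7a2, chr9:79759804-79760103: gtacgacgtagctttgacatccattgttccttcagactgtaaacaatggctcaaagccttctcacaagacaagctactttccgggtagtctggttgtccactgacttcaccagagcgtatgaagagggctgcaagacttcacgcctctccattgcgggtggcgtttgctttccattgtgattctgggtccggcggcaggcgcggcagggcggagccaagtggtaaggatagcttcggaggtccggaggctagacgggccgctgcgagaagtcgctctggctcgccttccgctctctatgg
Cox8a, chr19:7217567-7217866: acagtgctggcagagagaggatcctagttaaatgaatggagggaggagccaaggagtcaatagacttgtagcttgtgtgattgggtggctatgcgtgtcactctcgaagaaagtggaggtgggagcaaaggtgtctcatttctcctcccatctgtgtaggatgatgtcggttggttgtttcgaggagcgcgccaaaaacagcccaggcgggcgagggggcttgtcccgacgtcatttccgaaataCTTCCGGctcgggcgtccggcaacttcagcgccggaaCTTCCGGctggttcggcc
Ndufa4, chr6:11907401-11907700: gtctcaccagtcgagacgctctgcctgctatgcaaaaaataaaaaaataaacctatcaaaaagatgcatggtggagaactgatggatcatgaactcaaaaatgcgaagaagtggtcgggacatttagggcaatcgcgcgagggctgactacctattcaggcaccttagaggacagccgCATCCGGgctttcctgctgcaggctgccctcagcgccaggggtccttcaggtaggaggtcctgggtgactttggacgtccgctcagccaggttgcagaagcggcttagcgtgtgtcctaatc
Both strands were searched for the letters GCGCANGCG (NRF1), CCGGAAG (GABPA and other ETS factors), AAGGTCA (ESRRA), AAGATGGCG (YY1) and CCGGATG (SPDEF). The SPDEF and GABPA letters differ from each other within the same ETS core, and no string contains another. In Ndufc1 the capitals are the YY1 string, in Cox8a the GABPA string on the other strand at 2 places, and in Ndufa4 the SPDEF string on the other strand. Cox7a2 held none of the 5 strings, which says only that these letters are not in this window. Over all windows of the genes described here, the NRF1 string was present in 27.4%, against 6.19% of the 32744 other windows. The GABPA string stood in 21.9% against 8.83%, YY1 in 12.3% against 1.37%, ESRRA in 9.59% against 4.71% and SPDEF in 2.74% against 2.18%. The 2 windows with the SPDEF string belong to Ndufa4 and Atp5g3. A match is a description of the letters, not of a bound site.

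Per kilobase of transcript, the most abundant of these mRNAs coded for the ATP synthase and complex IV. Over the 16 libraries the median level of the tested genes was 303 CPM per kb in complex IV, 231 in complex V, 182 in complex III, 130.3 in complex II and 80.7 in complex I. Atp5b, the catalytic beta subunit of the ATP synthase, was highest at 927 CPM per kb. The highest of the other complexes were Cox4i1 of complex IV at 664, Uqcrh, the hinge protein of complex III, at 468, Ndufb9 of complex I at 245, and Sdhd, a membrane anchor of complex II, at 199.9 CPM per kb.

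Summed over its genes, each of the 5 complexes was lowest in SpdefKO_GC and highest in SpdefKO_EC, with the WT groups between, under TMM scaling and under plain totals alike. Complex IV summed to 2482, 2241, 2416 and 2491 CPM in SpdefKO_GC, against 2654, 2749, 2959 and 2745 CPM in WT_GC; all 4 SpdefKO_GC values lay below all 4 WT_GC values. In the other cells it summed to 3608, 3379, 3424 and 3535 CPM in SpdefKO_EC, against 3197, 3513, 3588 and 3102 CPM in WT_EC, where the groups overlapped. The ratio of the SpdefKO_GC mean to the WT_GC mean was 0.867 for complex IV, 0.894 for complex III, 0.898 for complex I, 0.936 for complex II and 0.959 for complex V. Between SpdefKO_EC and WT_EC the ratios were 1.04, 1.08, 1.06, 1.10 and 1.12 in the same order of complexes. Between WT_GC and WT_EC they were 0.878 for complex III, 0.938 for complex I, 0.963 for complex II and 0.977 for complex V, and complex IV stood lowest; under plain totals the ratios of complexes II and V turned to 1.02 and 1.03. These sums are descriptions with no test, since the genes were chosen with earlier results of these data known.

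**Figure D1:**
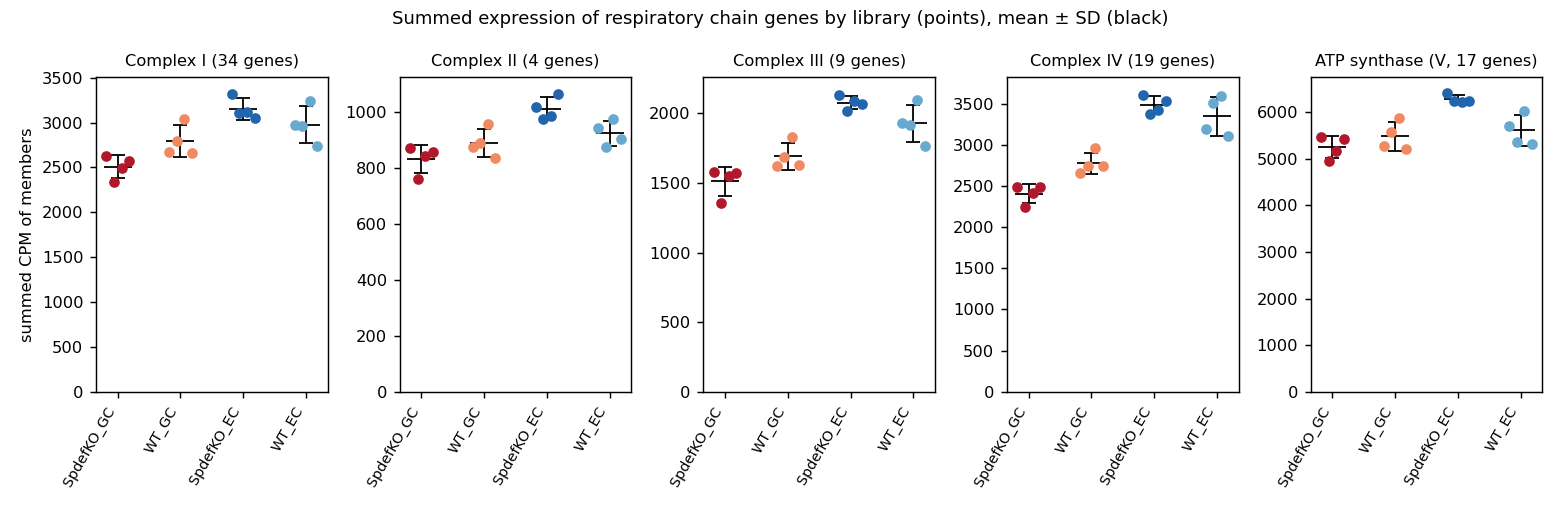
Summed CPM of the genes of each complex (vertical axis, from 0) in each library (points), with mean ± SD (black), for SpdefKO_GC, WT_GC, SpdefKO_EC and WT_EC. The 4 SpdefKO_GC values of complex IV, 2241 to 2491 CPM, lie below the 4 of WT_GC, 2654 to 2959 CPM, and both lie below the EC groups.

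**Figure D2:**
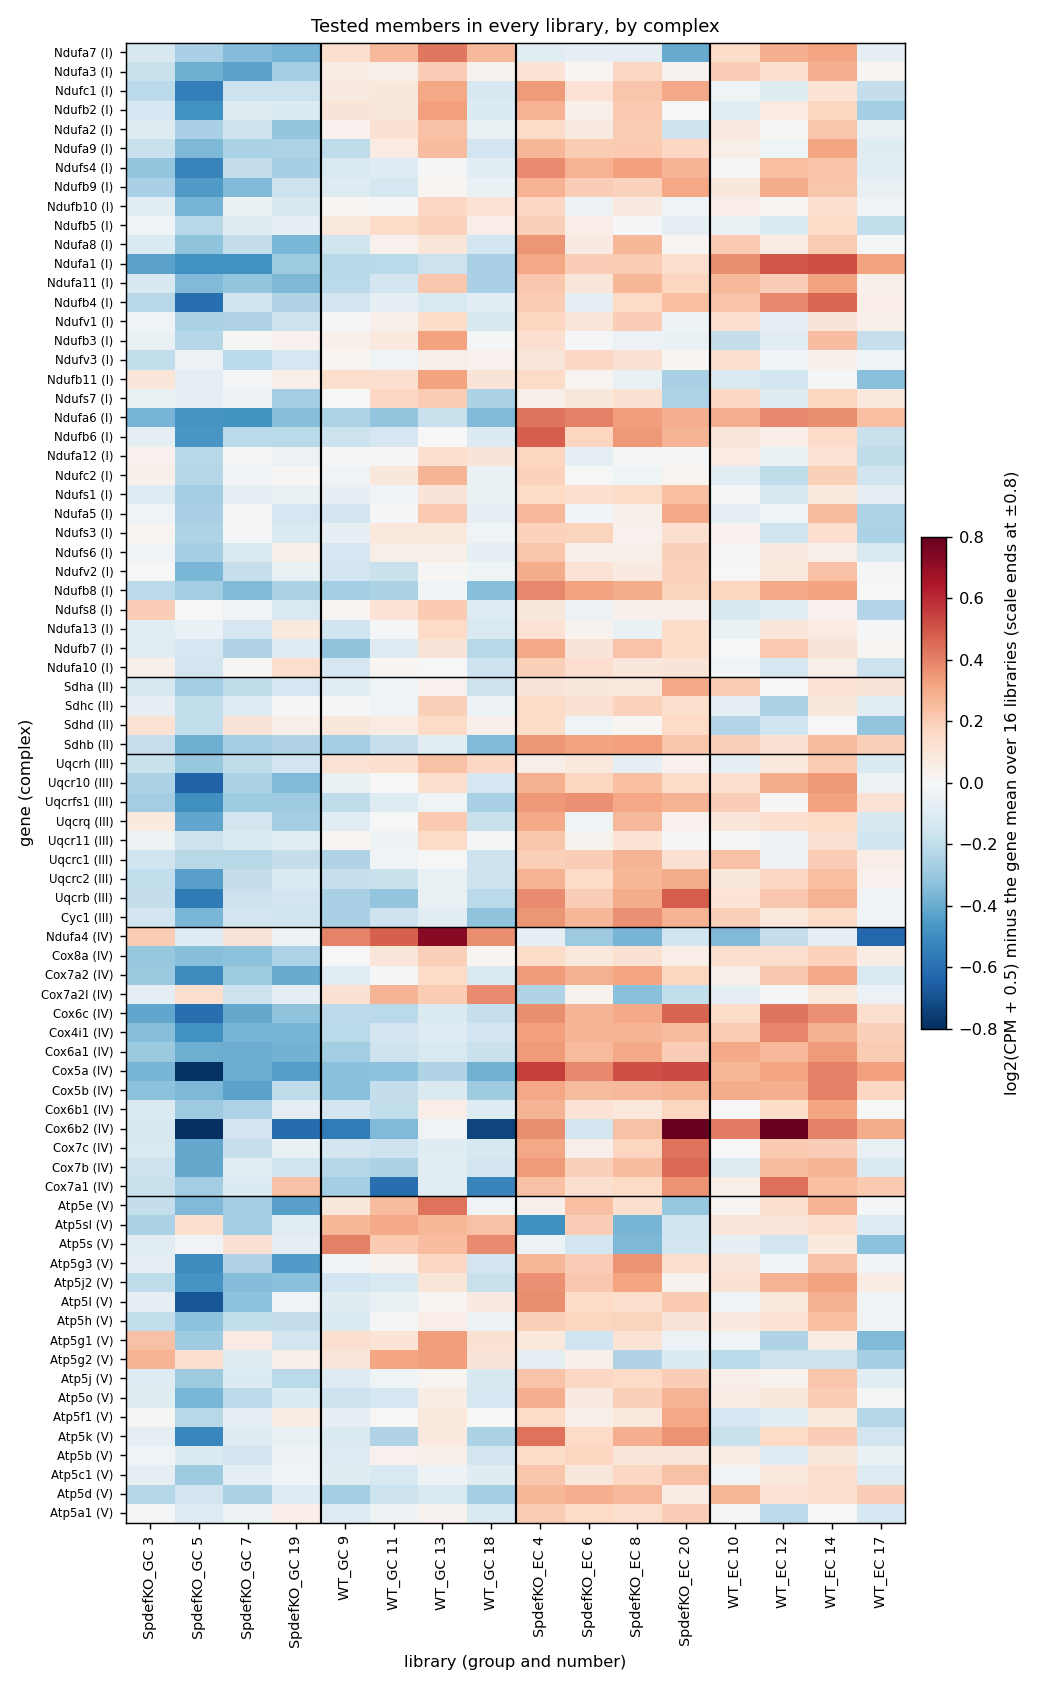
Log2(CPM + 0.5) of 77 of the 78 tested genes (rows, by complex) minus each gene's mean over the 16 libraries (columns), where red is above and blue below that mean. Most rows are blue in SpdefKO_GC, most of all in library 5, and red in SpdefKO_EC; Ndufa4, at the head of complex IV, is reddest in WT_GC.

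In goblet cells labelled SpdefKO, 24 of the 78 tested genes fell relative to WT_GC and none rose. These were 7 of 14 tested genes of complex IV, 9 of 34 of complex I, 6 of 17 of complex V, 2 of 9 of complex III and 0 of 4 of complex II. Over all 12915 genes tested, 11% fell and 10.4% rose in this comparison, by the edgeR quasi-likelihood test at an adjusted p under 0.05. At an unadjusted p under 0.05, 1 gene was higher and 32 lower, and neither DESeq2 nor limma-voom called any as higher. The share of all genes at the unadjusted threshold is not given, so these counts cannot be set against the 11% and 10.4%. The changes were small: the largest was -0.55 on the log2 scale and the median of the 78 was -0.15, against 0.00 for all genes tested. Estimates lay below 0 for 73 of the 78. Without library SpdefKO_GC 5, 13 of the 24 no longer passed; in all 12 genes then fell, 1 rose and the median was -0.09. Without WT_GC 13, 10 fell and 1 rose, and leaving out any of 6 other libraries, SpdefKO_GC 3, 7 or 19, WT_GC 11 or 18 or WT_EC 10, left 11 to 15. Shares of all genes are not given for these fits, so the drop in calls may not be particular to this set. Ndufa7, Ndufa3, Uqcrh, Uqcr10, Cox4i1, Cox7a2, Cox8a, Ndufa4 and Atp5e fell in all 23 alternatives tried, and the other 15 lost the call in 2 to 18 of them.

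Complex IV, cytochrome c oxidase, had the largest share of falling genes. Cox8a, a small membrane subunit, was at 262, 254, 257 and 271 CPM in SpdefKO_GC, against 322, 345, 367 and 325 CPM in WT_GC. All 4 goblet libraries labelled SpdefKO lay below all 4 of WT_GC, and the log2 fold change was -0.38 ± 0.06, adjusted p = 1.30e-04. Cox7a2, the general isoform of subunit VIIa, was at 148, 128, 149.8 and 138 CPM in SpdefKO_GC and 171, 181, 203 and 168 CPM in WT_GC, again without overlap (-0.36 ± 0.09, adjusted p = 0.0071). Cox4i1, the general isoform of subunit IV, fell to 382, 347, 374 and 375 CPM in SpdefKO_GC, against 418, 437, 452 and 436 CPM in WT_GC (-0.24 ± 0.06, adjusted p = 0.00834). Ndufa4 fell by more, to 112, 90.7, 105 and 95.1 CPM in SpdefKO_GC, against 129, 136, 162 and 126 CPM in WT_GC (-0.46 ± 0.11, adjusted p = 0.00618). The groups did not overlap for either gene. Cox6c, Cox6a1 and Cox7a2l also fell, by 0.18 to 0.29 on the log2 scale, less firmly. Cox6a1 lost the call in 13 of 23 alternatives, 10 of them single libraries left out (adjusted p = 0.0924 without SpdefKO_GC 5). Cox6c lost it in 6, each a single library (adjusted p = 0.108 without SpdefKO_GC 5), and Cox7a2l without SpdefKO_GC 7, SpdefKO_GC 19 or WT_GC 18 (adjusted p up to 0.073). Cox6c and Cox7a2l have near-identical pseudogenes, so their counts may be split. Cox5a and Cox5b, of the matrix face of the enzyme, did not pass, at -0.17 ± 0.08, adjusted p = 0.134 and -0.10 ± 0.07, adjusted p = 0.328.

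In complex I the falling genes were accessory subunits, which surround the catalytic core. They were 9 of the 27 genes outside the core (median log2 fold change -0.19). Of the 7 core genes 0 fell, with a median that was also below 0, at -0.10. This split was chosen after the values were seen and was not tested. Ndufa7 was at 61.5, 56.1, 52.8 and 52.0 CPM in SpdefKO_GC, against 73.6, 80.8, 90.2 and 80.7 CPM in WT_GC (-0.55 ± 0.10, adjusted p = 5.87e-04), with no overlap. It lies on chromosome 17 at 33824572–33838317 of GRCm38, 6.1 Mb from Spdef. Of the set, Ndufb10, which also fell, and Ndufv3, which did not pass, lie nearer to Spdef, at 2.99 and 3.79 Mb. Ndufa3 was at 51.7, 44.7, 43.4 and 48.2 CPM in SpdefKO_GC and 61.1, 60.6, 67.1 and 59.7 CPM in WT_GC (-0.40 ± 0.08, adjusted p = 9.52e-04); it shares 4 exon bases with Tfpt on the other strand. Ndufc1, a small membrane subunit, was at 33.5, 26.6, 34.6 and 34.7 CPM in SpdefKO_GC, against 41.2, 41.6, 48.6 and 35.8 CPM in WT_GC (-0.37 ± 0.10, adjusted p = 0.0145). Its groups did not overlap, but the call was lost without SpdefKO_GC 5 or WT_GC 13, with adjusted p-values of up to 0.0644. Ndufa2, Ndufs4, Ndufb9, Ndufb10, Ndufb5 and Ndufa1 fell by 0.20 to 0.29 on the log2 scale. None of these 6 passed without SpdefKO_GC 5, where adjusted p-values were 0.0732 to 0.178. Ndufa2 lost the call in 5 of 23 alternatives, Ndufb9 in 11, each a single library left out, and the other 4 in 13 to 18.

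In complex III, Uqcrh fell to 225, 207, 221 and 229 CPM in SpdefKO_GC, against 276, 279, 299.9 and 286 CPM in WT_GC (-0.37 ± 0.07, adjusted p = 9.90e-04). Uqcr10, another small subunit, was at 128, 97.4, 128 and 119 CPM in SpdefKO_GC and 146, 152, 168 and 138 CPM in WT_GC (-0.36 ± 0.09, adjusted p = 0.0118), with the lowest value in library 5; without that library its log2 fold change was -0.26 (adjusted p = 0.0463). The electron-carrying Cyc1 and the 2 large core proteins Uqcrc1 and Uqcrc2 did not pass, at 0.00, -0.10 and -0.08 on the log2 scale. In complex II, none of Sdha, Sdhb, Sdhc and Sdhd passed, with estimates of -0.12 to -0.05.

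Of the ATP synthase, Atp5e, the epsilon subunit of the F1 part, fell to 98.4, 88.0, 92.7 and 83.2 CPM in SpdefKO_GC, against 119.8, 134, 152 and 109.8 CPM in WT_GC (-0.51 ± 0.11, adjusted p = 0.00318). No library of one group reached those of the other. The other 4 F1 subunits did not pass, and the abundant alpha and beta subunits were nearly level. Atp5a1 was at 1548, 1449.7, 1508 and 1616 CPM in SpdefKO_GC and 1449, 1509.9, 1590.2 and 1437 CPM in WT_GC (0.03 ± 0.06, adjusted p = 0.765), and Atp5b at 1738, 1644, 1596 and 1720.0 CPM in SpdefKO_GC and 1649, 1813, 1831 and 1598 CPM in WT_GC (-0.04 ± 0.07, adjusted p = 0.711). Atp5g3, which encodes the same c-ring protein as Atp5g1 and Atp5g2, fell to 219.8, 164, 196 and 169.7 CPM in SpdefKO_GC, against 229, 236, 261 and 209 CPM in WT_GC (-0.32 ± 0.09, adjusted p = 0.0216). The ranges overlapped, since SpdefKO_GC 3 lay above WT_GC 18. The call was lost without any of SpdefKO_GC 5, SpdefKO_GC 19, WT_GC 11 and WT_GC 13, with adjusted p-values of up to 0.0883. Further subunits, Atp5j2 and Atp5h, changed by -0.25 and -0.20 (log2), and the non-subunits Atp5sl and Atp5s by -0.38 and -0.34. Atp5h has 4 near-identical pseudogenes, so its counts may be split. Atp5j2, Atp5h and Atp5s did not pass without SpdefKO_GC 5 and lost the call in 14, 11 and 9 alternatives. Atp5sl lost it without any one of 7 of the 8 goblet libraries, all but SpdefKO_GC 5 (adjusted p up to 0.0901).

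Other values differed between the same groups. All 7 enteroendocrine markers were higher in SpdefKO_GC than in WT_GC, with summed levels of 204–314 CPM against 87.0–123.0 CPM. So were 6 of 8 absorptive markers and 2 of 6 cycling markers; the cycling sums were 1208–1910.1 CPM in SpdefKO_GC against 782–1100.5 CPM in WT_GC. Stromal and endothelial markers summed to 7.77–10.1 CPM in SpdefKO_GC and 2.60–3.18 CPM in WT_GC, and 8 immune markers to 6.88–9.17 CPM in SpdefKO_GC and 4.29–5.16 CPM in WT_GC, where Cd3g was at 0. Fold changes also varied with length: among genes of under 1 kb outside the set the median log2 fold change was -0.08, against -0.17 for the 49 genes of the set in that bin, and among genes of over 4 kb it was 0.07. The part of these differences in the result was not tested.

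**Figure D3:**
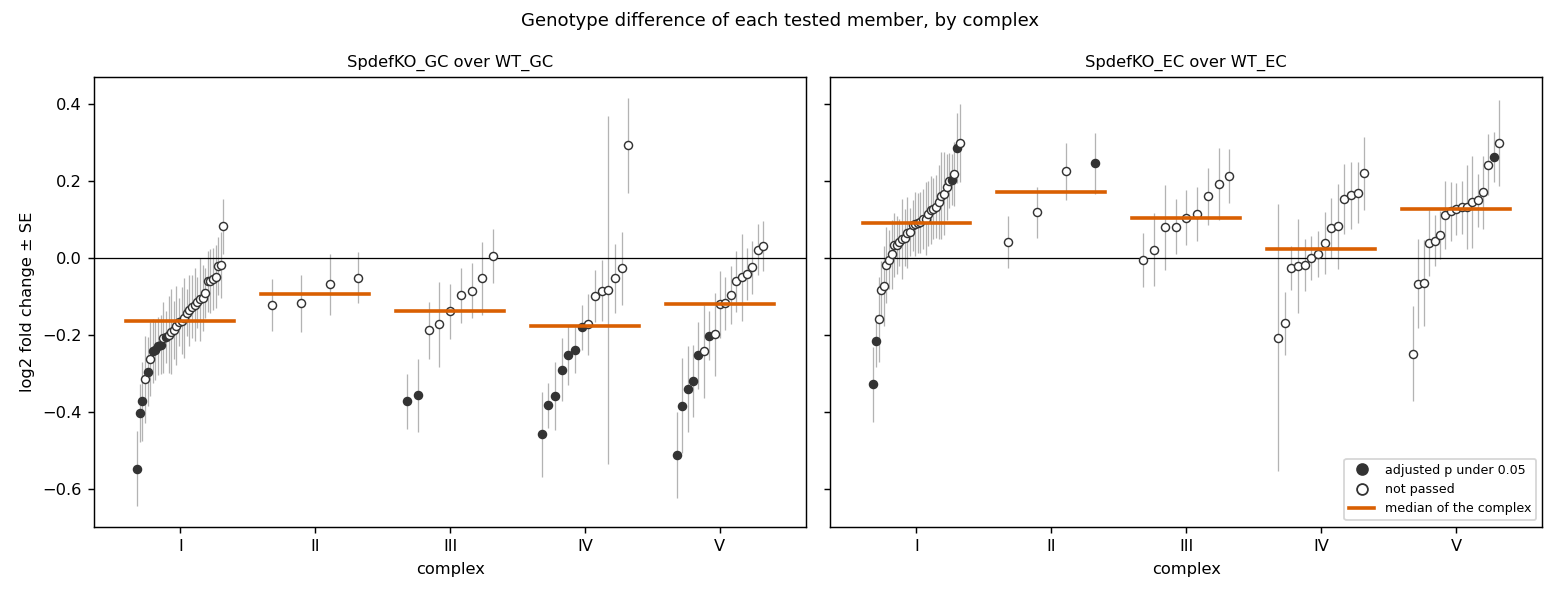
Log2 fold change ± SE (vertical axis) of each tested gene, by complex, for SpdefKO_GC over WT_GC (left) and SpdefKO_EC over WT_EC (right). Filled points passed an adjusted p under 0.05 and orange lines are the medians of each complex; 73 of 78 points are below 0 on the left and 62 of 78 above 0 on the right.

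In the remaining epithelial cells few genes passed between the genotypes, and most estimates lay above 0. In SpdefKO_EC, 4 of the 78 genes rose relative to WT_EC and 2 fell, against 6.09% and 6.54% of all genes tested, so neither count was above the background. The median log2 fold change was 0.09, against 0.01 for all genes, and 62 estimates lay above 0. Atp5a1 rose to 1788, 1737, 1714 and 1782 CPM in SpdefKO_EC, against 1537, 1346, 1553 and 1419 CPM in WT_EC (0.26 ± 0.06, adjusted p = 0.0127). All 4 SpdefKO_EC libraries exceeded all 4 of WT_EC; its exons overlap Haus1 on the other strand by 129 bases. Ndufb6 (0.29 ± 0.09, adjusted p = 0.0464), Sdhd (0.25 ± 0.08, adjusted p = 0.0488) and Ndufs1 (0.20 ± 0.07, adjusted p = 0.0488) rose just past the threshold. These 3 lost the call in 16 to 18 of 23 alternatives, and the number of rising genes moved with single libraries: 10 rose without SpdefKO_GC 5, 8 without SpdefKO_EC 6, 7 without WT_EC 14, 6 without WT_GC 13, 2 without SpdefKO_GC 3 and 1 without any one of the other 11. Ndufa7 fell here too, to 63.6, 64.2, 63.8 and 50.7 CPM in SpdefKO_EC, against 74.5, 82.5, 83.8 and 63.8 CPM in WT_EC (-0.33 ± 0.10, adjusted p = 0.0335). Library SpdefKO_EC 20 was the lowest, and without it the log2 fold change was -0.25 and did not pass (adjusted p = 0.0996); nor did it pass without SpdefKO_EC 4 or WT_EC 10, 12 or 14. Ndufa1 fell to 81.5, 75.5, 75.6 and 72.4 CPM in SpdefKO_EC, against 85.1, 92.9, 93.9 and 82.3 CPM in WT_EC (-0.21 ± 0.07, adjusted p = 0.0405), in ranges that did not overlap; it lost the call in 10 of 23 alternatives. In an edgeR fit of these 2 groups alone, none of the 78 passed in either direction, while 13 were higher and 2 lower at an unadjusted p under 0.05. By DESeq2 on all groups 8 rose and 2 fell, and by limma-voom 6 and 2. Shares of all genes are not given for these settings, so these counts cannot be set against the 6.09% and 6.54%. Under upper-quartile and plain-total scaling 1 gene rose; over all genes the share of calls that were higher was then 33.1% and 32.7%, against 48.3% in the scaling used here. Enteroendocrine markers summed to 248–413 CPM in SpdefKO_EC and 553–746 CPM in WT_EC, tuft markers to 5.42–10.1 CPM in SpdefKO_EC and 24.8–55.0 CPM in WT_EC, and cycling markers to 904–1536 CPM in SpdefKO_EC and 658–1002 CPM in WT_EC; their part was not tested.

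The difference between the genotype responses was tested directly, as the log2 fold change between genotypes in goblet cells minus that in the other cells. It was below 0 and passed for 11 of the 78 genes and passed above 0 for none, against 4.65% and 4.88% of all genes tested. No gene was above 0 at an unadjusted p under 0.05 either, and 39 were below, and DESeq2 and limma-voom called 0 above 0. The share of all genes at the unadjusted threshold is not given, so the 39 cannot be set against the 4.65%. The median was -0.24, against -0.02 for all genes, and 75 estimates lay below 0. Ndufc1 had the largest difference: it was at 32.4 ± 3.87 CPM in SpdefKO_GC and 41.8 ± 5.26 CPM in WT_GC, and at 46.5 ± 3.19 CPM in SpdefKO_EC and 37.8 ± 3.39 CPM in WT_EC (mean ± SD, n = 4 libraries each). Its difference was -0.67 ± 0.14, adjusted p = 0.00627. In the EC libraries Ndufc1 was at 49.6, 42.5, 45.6 and 48.5 CPM in SpdefKO_EC, against 38.1, 36.5, 42.3 and 34.3 CPM in WT_EC. These ranges lay in the opposite order to those of the goblet libraries and did not overlap, but the closest values were 42.5 and 42.3 CPM. The difference between SpdefKO_EC and WT_EC did not pass for this gene. Cox7a2 followed with -0.52 ± 0.12, adjusted p = 0.0121; its EC values were 231, 223, 227 and 206 CPM in SpdefKO_EC and 187, 212, 226 and 168 CPM in WT_EC, which overlapped. Cox8a had a difference of -0.36 ± 0.08, adjusted p = 0.00986, with 356, 342, 350.3 and 335 CPM in SpdefKO_EC and 352, 355, 367 and 335 CPM in WT_EC, almost level. These 3 genes passed in all 22 alternatives. The other 8 were Ndufa4 (-0.54), Atp5g3 (-0.49), Ndufs4 (-0.46), Ndufb6 (-0.42), Uqcrh (-0.37), Uqcrfs1 (-0.35), Sdhc (-0.34) and Ndufs1 (-0.32), and each lost the call in 3 to 17 alternatives. Without SpdefKO_GC 5, 4 genes passed. Without SpdefKO_EC 4, WT_EC 10 or WT_EC 17, 3 passed, and without SpdefKO_GC 7 or 19, WT_GC 11, 13 or 18, or SpdefKO_EC 8 or 20, 4 to 7 passed. Plain totals left 4 genes; of all calls 66.1% were then higher, against 51.2% in the scaling used here. Of 7 enteroendocrine markers, 7 were higher in SpdefKO_GC than in WT_GC, 5 lower in SpdefKO_EC than in WT_EC, and 7 passed this test above 0; their part was not tested.

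Goblet cells and the other epithelial cells were compared within each genotype. In wild-type mice, 28 of the 78 genes were lower in WT_GC than in WT_EC and 7 were higher, against 30.1% lower and 31.0% higher of all genes tested. The count of lower genes was thus near the background and that of higher genes was under it. The median was -0.09, against 0.05 for all genes. Under upper-quartile scaling 12 genes were higher and 17 lower with a median of -0.01, and under plain totals 11 and 17. These scalings moved the median of all genes by 0.08, so the split against 0 moved with all genes. The median of the set stood 0.14 below that of all genes in each of the 4 scalings. A change of scaling shifts all genes alike, so this offset could not have moved and is no check of the scaling. Complex IV carried the lower side: 10 of its 14 tested genes were lower and 2 higher, against 8 and 1 of 34 in complex I, 5 and 0 of 9 in complex III, 2 and 1 of 4 in complex II, and 3 and 3 of 17 in complex V. Cox5a was at 169, 170.2, 180.4 and 164 CPM in WT_GC, against 256, 266, 282 and 269 CPM in WT_EC (-0.65 ± 0.08, adjusted p = 8.36e-07). Cox5b (-0.52), Cox6a1 (-0.46), Cox6c (-0.46) and Cox4i1 (-0.42) were lower with it, in ranges that did not overlap. In complex I, Ndufa1 was at 56.2, 56.5, 58.2 and 54.9 CPM in WT_GC, against 85.1, 92.9, 93.9 and 82.3 CPM in WT_EC (-0.65 ± 0.07, adjusted p = 8.57e-08), and Ndufa6 at 117, 111, 122 and 108 CPM in WT_GC, against 169.6, 181, 179 and 164 CPM in WT_EC (-0.60 ± 0.06, adjusted p = 8.25e-08). Ndufb8 was lower by 0.43. Sdhb, the iron-sulfur subunit of complex II, was lower (-0.41 ± 0.07, adjusted p = 2.47e-05), while the anchor Sdhd was higher (0.26 ± 0.08, adjusted p = 0.0076). Above the other cells stood Ndufa4, Atp5s, Atp5g2, Ndufb11, Atp5g1, Sdhd and Cox7a2l, at 0.26 to 0.80 on the log2 scale. Sdhd lost the call without WT_EC 10 (adjusted p = 0.0501), Atp5g1 without any one of 3 libraries (adjusted p up to 0.0978), and Cox7a2l without WT_GC 18 or WT_EC 10 (adjusted p up to 0.0611).

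More genes passed in mice labelled SpdefKO. Of the 78 genes, 60 were lower in SpdefKO_GC than in SpdefKO_EC and 1, Ndufa4, was higher, against 28.4% and 28.0% of all genes tested. The median was -0.35, against 0.03 for all genes. All 9 genes of complex III were lower, as were 12 of 14 of complex IV, 13 of 17 of complex V, 23 of 34 of complex I and 3 of 4 of complex II. Cox5a was at 165, 123, 162 and 157 CPM in SpdefKO_GC, against 314, 279, 306 and 309 CPM in SpdefKO_EC (-0.99 ± 0.08, adjusted p = 3.06e-09). Cox6c (-0.79), Ndufa6 (-0.78), Cox4i1 (-0.67), Uqcrfs1, the Rieske iron-sulfur protein (-0.66), Cox7a2 (-0.65), Cox6a1 (-0.64) and Ndufs4 (-0.64) followed. Of the F1 part, the 2 abundant subunits were lower, by 0.20 for Atp5a1 and 0.21 for Atp5b. Neither passed under upper-quartile or plain-total scaling, where Atp5b was at -0.09 and -0.08 (adjusted p up to 0.398 for the 2 genes). Without SpdefKO_GC 5, 52 genes were lower. Under plain totals 41 were lower, 4 higher and the median was -0.22, but the median of all genes then moved up by 0.13. Relative to it the set stood at -0.38 under both scalings, a value that a shift of all genes alike cannot change. Of all calls, 61.9% were then higher with plain totals and 60.9% with upper quartiles, against 49.7% here. This comparison shares its SpdefKO_GC libraries with the first one and its SpdefKO_EC libraries with the second, so the 3 are not independent. The test of whether the gap between fractions differs between genotypes is the same as that between the genotype responses above, in which 11 genes passed.

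**Figure D4:**
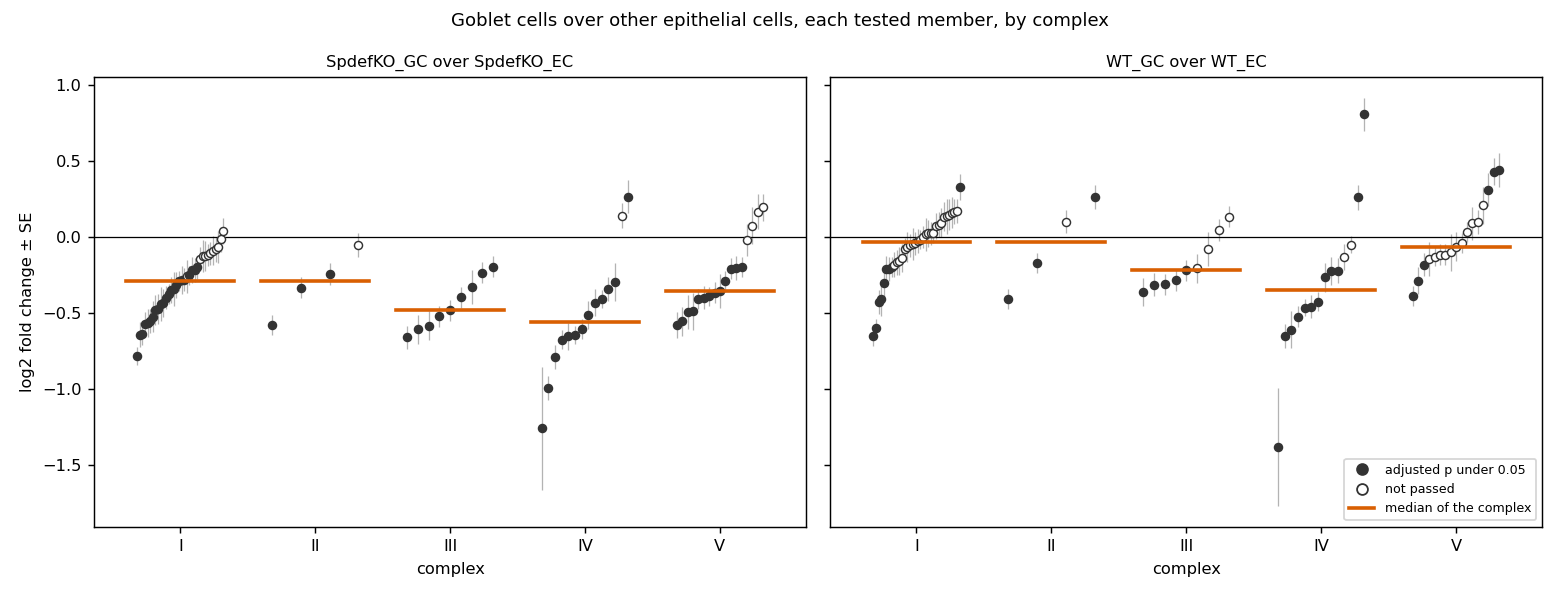
Log2 fold change ± SE (vertical axis) of each tested gene, by complex, for SpdefKO_GC over SpdefKO_EC (left) and WT_GC over WT_EC (right). Filled points passed an adjusted p under 0.05 and orange lines are medians; 60 genes are lower on the left and 28 on the right, and the highest point of complex IV in both is Ndufa4.

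Several subunits come in isoforms that differ between tissues. Ndufa4 was at 129, 136, 162 and 126 CPM in WT_GC, against 76.2, 85.3, 92.5 and 63.0 CPM in WT_EC (0.80 ± 0.11, adjusted p = 3.98e-06), with every goblet library above every other. In SpdefKO_GC it was at 112, 90.7, 105 and 95.1 CPM, against 93.3, 79.7, 75.5 and 87.2 CPM in SpdefKO_EC (0.27 ± 0.11, adjusted p = 0.0485), and that call was lost without any one of 11 libraries, among them SpdefKO_GC 3, 7 and 19 and SpdefKO_EC 6, 8 and 20 (adjusted p up to 0.172). AA467197, the mouse gene also called Nmes1, encodes a protein related to Ndufa4 whose human counterpart is known to take the place of NDUFA4 in complex IV. It is not part of the set, and it was chosen after its values were seen. Goblet libraries held 31.1, 35.6, 26.1 and 29.1 CPM of AA467197 in SpdefKO_GC and 28.9, 31.9, 34.0 and 34.3 CPM in WT_GC. The other cells held 109, 107, 97.8 and 101 CPM in SpdefKO_EC and 106, 119, 147 and 121 CPM in WT_EC, so every EC library was above every goblet library. It was lower in WT_GC than in WT_EC (log2 fold change -1.93 ± 0.10, adjusted p = 5.48e-12), and the genotypes did not differ past the threshold in goblet cells (-0.08 ± 0.10, adjusted p = 0.623) or in the other cells (-0.25 ± 0.10, adjusted p = 0.0965). The ratio of Ndufa4 to AA467197 reads was 2.54–4.02 in SpdefKO_GC and 3.68–4.77 in WT_GC, and 0.747–0.862 in SpdefKO_EC and 0.522–0.717 in WT_EC. The reads are not scaled by length, so only the change of the ratio between fractions can be read, and it is given without a test.

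Cox7a1, the isoform of subunit VIIa known from heart and skeletal muscle, was measured in all libraries at a lower level than Cox7a2. Its goblet values were 29.4, 27.4, 30.8 and 39.2 CPM in SpdefKO_GC, against 27.4, 21.8, 31.2 and 22.9 CPM in WT_GC. Its EC values were 39.2, 36.5, 37.3 and 42.8 CPM in SpdefKO_EC, against 34.5, 45.2, 39.4 and 38.6 CPM in WT_EC. It was lower in WT_GC than in WT_EC (-0.61 ± 0.12, adjusted p = 3.05e-04). Between SpdefKO_GC and WT_GC its estimate was above 0 and did not pass (0.29 ± 0.12, adjusted p = 0.101), while Cox7a2 fell. The ratio of Cox7a1 to Cox7a2 reads was 0.198–0.285 in SpdefKO_GC and 0.120–0.160 in WT_GC, in ranges that did not overlap. The top value was that of SpdefKO_GC 19, with 0.198, 0.213 and 0.206 in SpdefKO_GC 3, 5 and 7. In the other cells the ratio was 0.164–0.208 in SpdefKO_EC and 0.175–0.230 in WT_EC. Both of these ranges overlapped that of SpdefKO_GC and lay above that of WT_GC. The difference between the goblet groups was noticed after the values were seen and was not tested. The muscle and heart isoforms Cox6a2 and Cox8b and the lung isoform Cox4i2 were near 0. Cox8b had 17 of its 18 reads in WT_GC, with 8, 1, 3 and 5 in the 4 libraries. Cox6b2, the testis isoform of subunit VIb, averaged 0.554 ± 0.287 CPM in SpdefKO_GC and 0.581 ± 0.231 CPM in WT_GC, and 1.42 ± 0.690 CPM in SpdefKO_EC and 1.58 ± 0.480 CPM in WT_EC (SD, n = 4 each), while Cox6b1 stood at 206 to 315 CPM over all libraries. By the edgeR test Cox6b2 was lower in WT_GC than in WT_EC (-1.38, adjusted p = 0.00467). It was also lower in SpdefKO_GC than in SpdefKO_EC (-1.26, adjusted p = 0.0121). Both were the largest changes of the set in their comparison, but they rest on 3 to 29 reads per library. Cox6b2 is among the lower genes of complex IV counted above. Of the 3 c-ring genes, Atp5g2 and Atp5g1 were higher in WT_GC than in WT_EC (0.43 ± 0.09, adjusted p = 3.31e-04 and 0.31 ± 0.11, adjusted p = 0.0182), and Atp5g3 did not pass (-0.06 ± 0.09, adjusted p = 0.574). Atp5g1 has a near-identical pseudogene and lost the call without WT_GC 13, WT_EC 12 or WT_EC 17, with adjusted p-values of up to 0.0978.

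**Figure D5:**
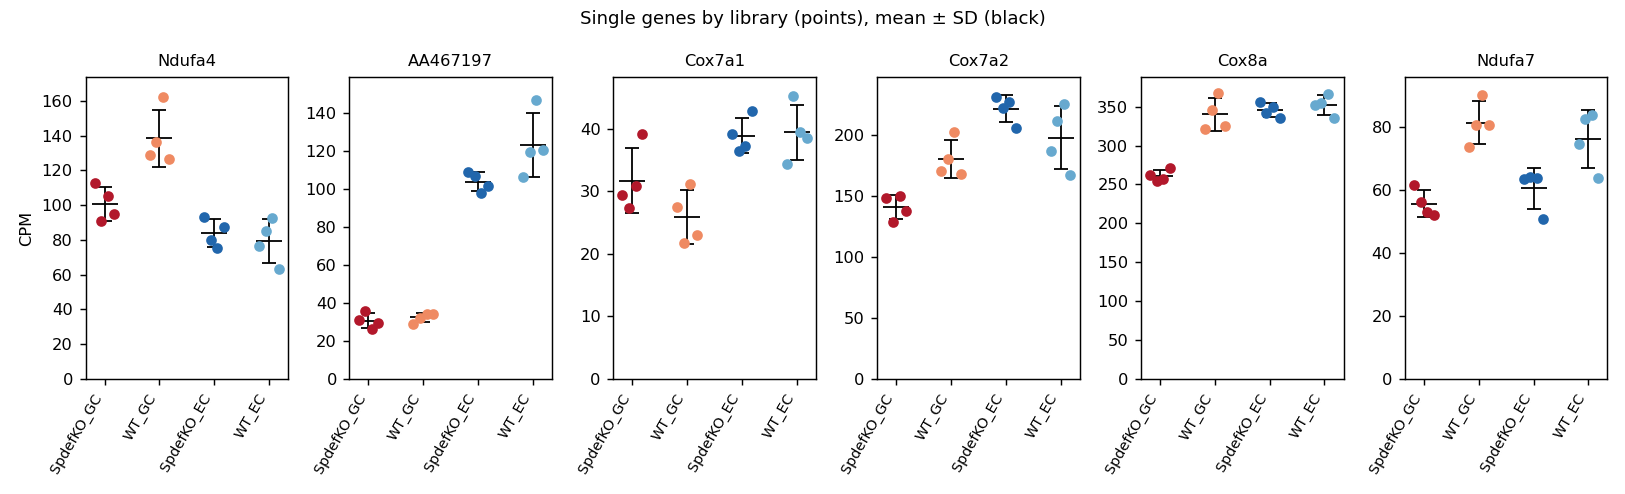
CPM (vertical axis, from 0) of 6 genes in each library (points), with mean ± SD (black), for SpdefKO_GC, WT_GC, SpdefKO_EC and WT_EC. Ndufa4 is highest in WT_GC, at 126 to 162 CPM, and AA467197 is at 26.1 to 35.6 CPM in both goblet groups, against 97.8 to 147 CPM in the EC groups.

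Other genes of the pathway were taken from lists drawn up with earlier results known. Of 40 assembly factors, 7 fell in SpdefKO_GC relative to WT_GC and none rose, with a median log2 fold change of -0.17; over all genes 11% fell and 10.4% rose, against which each list here can be read. Among these Sdhaf1, which helps complex II receive its iron-sulfur clusters, was at 11.2 ± 1.46 CPM in SpdefKO_GC and 17.4 ± 1.06 CPM in WT_GC (-0.63 ± 0.11, adjusted p = 4.27e-04), and Surf1, needed for complex IV, fell by 0.47. Of 17 genes for electron carriers and coenzyme Q synthesis, 5 fell and none rose, led by Adck3 (-0.60 ± 0.11, adjusted p = 0.00101) and Coq2 (-0.46 ± 0.09, adjusted p = 8.92e-04), both of coenzyme Q synthesis. Of 12 genes for ATP export and chain-associated proteins, 4 fell and 1 rose. The one that rose was the ADP/ATP carrier Slc25a4, at 35.7 ± 0.969 CPM in SpdefKO_GC and 17.5 ± 2.66 CPM in WT_GC (1.03 ± 0.10, adjusted p = 1.04e-06). Of 76 mitochondrial ribosomal proteins 4 fell and none rose, of 22 tested import genes 1 fell, and of 19 genes of pyruvate entry and the citric acid cycle 2 fell and 1 rose, counts of falling genes under the background. Of 78 tested cytosolic ribosomal proteins 13 fell and 1 rose. Among 17 tested glycolysis genes 3 rose, Gapdh (0.49 ± 0.05, adjusted p = 2.57e-06), Hk1 (0.44 ± 0.07, adjusted p = 2.17e-04) and Pkm (0.26 ± 0.07, adjusted p = 0.0094), and none fell. Of 14 regulators of mitochondrial biogenesis only Gabpa passed, with a rise (0.18 ± 0.06, adjusted p = 0.0235).

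In SpdefKO_EC relative to WT_EC few of these genes passed, and over all genes tested 6.09% rose and 6.54% fell. Of the 12 genes for ATP export, 4 rose and none fell. Among the 4 were Vdac2, a channel of the outer membrane (0.33 ± 0.07, adjusted p = 0.00556), and Slc25a5, another ADP/ATP carrier (0.26 ± 0.06, adjusted p = 0.0119). Of 76 mitochondrial ribosomal proteins 3 rose and none fell, both under the share of all genes. Adck3 fell here as well (-0.51 ± 0.11, adjusted p = 0.0056). In the test between the genotype responses, Slc25a4 differed by 0.78 ± 0.15, adjusted p = 0.00245 and Sdhaf1 by -0.73 ± 0.16, adjusted p = 0.00627, in opposite directions.

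Between WT_GC and WT_EC, 31.0% of all genes were higher and 30.1% lower. Cytosolic ribosomal proteins were higher in goblet cells for 69 of 78 and lower for 1. Mitochondrial ribosomal proteins were higher for 25 and lower for 4 of 76, import genes for 8 and 0 of 22, and assembly factors for 13 and 4 of 40; their higher counts were near the background and their lower counts under it. Glycolysis genes were lower for 15 of 17 and higher for 1, with a median of -0.998 on the log2 scale; Pkm averaged 301 ± 10.7 CPM in WT_GC, against 1072 ± 23.5 CPM in WT_EC (-1.83 ± 0.07, adjusted p = 4.64e-14). Of the 12 genes for ATP export 8 were lower and 1 higher, led by Higd1a (-1.36 ± 0.13, adjusted p = 2.89e-08) and the mitochondrial creatine kinase Ckmt1 (-0.96 ± 0.07, adjusted p = 3.88e-10). Of 19 genes of pyruvate entry and the citric acid cycle, 3 were higher and 2 lower, with a median of 0.03. Among the lower was Cs, citrate synthase (-1.26 ± 0.06, adjusted p = 7.10e-13). Of 14 regulators of mitochondrial biogenesis, 5 were higher and 3 lower, with a median of 0.09. The lower regulators included Ppargc1b (-0.96 ± 0.17, adjusted p = 1.32e-04) and Esrra (-0.83 ± 0.06, adjusted p = 6.90e-10). In SpdefKO_GC relative to SpdefKO_EC the cytosolic ribosomal proteins were higher for 53 of 78 and lower for 1, mitochondrial ribosomal proteins higher for 9 and lower for 14, assembly factors higher for 8 and lower for 10, and glycolysis genes lower for 14 of 17 and higher for 1, against 28.0% higher and 28.4% lower of all genes; the counts of the 2 middle lists were under these shares.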

How the data were processed

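The deposited table holds raw read counts per gene for 16 libraries, 4 in each of 4 groups. Per the labels' protocols, libraries were stranded total RNA depleted of ribosomal RNA and sequenced from both ends. Per the submitters' processing notes the authors used FastQC 0.11.2, STAR 2.4.0f, HTSeq 0.6.1p1 and DESeq2 1.14 with the build mm10; for the counting, annotation and strand setting are not given in the sources used. The 3 rows that name no gene held 47.1–54.7% of the counts and were left out of library sizes and tests.

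From the counts, edgeR 4.0.16 in R 4.3.3 (TMM scaling, filterByExpr, robust quasi-likelihood test) was fitted to 12915 genes and all 16 libraries in 1 model, with 5 contrasts and Benjamini-Hochberg adjustment over all genes at a threshold of 0.05. The biological coefficient of variation was 11.7%. Each SE is the log2 fold change divided by the root of the F statistic and is approximate. No pair of libraries agreed within sampling noise. The script was tested on simulated data. The members and lists were chosen with earlier results of these data known. Named are the called genes with the largest change per direction (up to 8, at 5 CPM or more), the tissue isoforms and Sdh genes, Ndufa7, the most abundant gene of each complex, every gene called in the test between genotype responses, and up to 3 genes per other list; further genes were named after their values were seen. Alternatives were other scalings, no filter, DESeq2 1.42.0, limma 3.58.1 (voom), only the groups compared, and leaving out each library; leaving out genes with a near-identical pseudogene (at least 95% identity over 200 bases) or an opposite-strand overlap was added after seeing the data. Promoter sequences are RefSeq's, on GRCm38.p6. Gene symbols were matched to RefSeq, 80 directly and 3 by an older symbol. The values of 1 gene are not reported here, though it is counted in the totals.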

Additional observations from a re-analysis of the deposited data

Results flagged for a closer look

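In 10 of 172 groups of 4 libraries, 1 library lay far from the other 3; chance alone flags about 1 in 20 groups. In SpdefKO_EC 20, Ndufa7 was at 50.75 CPM, against 63.6–64.2 CPM in the other 3 libraries of its group, and Sdha at 484.6 CPM, against 415–421 CPM. In SpdefKO_GC 5, Ndufc1 was at 26.61 CPM (33.5–34.7 in the others), Uqcrfs1 at 146.3 CPM (168–169) and the sum of complex III at 1357 CPM (1549–1577). In WT_GC 13, Ndufb11 was at 103.1 CPM (88.6–90.9 in the others), Atp5g1 at 172.3 CPM (147–149) and Sdhc at 149.3 CPM (127–130). In WT_EC 12, Cox6b2 was at 2.29 CPM (1.25–1.39), and in SpdefKO_EC 4 the sum of complex V was 6423 CPM (6219–6245).

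The genotype response differed between goblet cells and the other cells by the edgeR interaction test for 11 genes, all with a negative difference: Ndufc1 (-0.67), Ndufa4 (-0.54), Cox7a2 (-0.52), Atp5g3 (-0.49), Ndufs4 (-0.46), Ndufb6 (-0.42), Uqcrh (-0.37), Cox8a (-0.36), Uqcrfs1 (-0.35), Sdhc (-0.34) and Ndufs1 (-0.32), in log2 units. The cause was not tested.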

How the results depend on the processing

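No paired analysis was possible because the groups compared share no replicate numbers, and the labels do not say whether libraries with neighbouring numbers came from the same mouse; any such pairing is ignored in the comparisons of fractions and in the test between genotype responses. Of 72 values of named genes, 41 kept their call in every alternative, 31 lost it in at least 1 and none reversed. When each library was left out in turn, 10 to 24 genes fell and 0 to 1 rose in SpdefKO_GC relative to WT_GC (median -0.17 to -0.09). In SpdefKO_EC relative to WT_EC 1 to 10 rose and 0 to 3 fell (0.06 to 0.13). In WT_GC relative to WT_EC 5 to 10 were higher and 19 to 34 lower (-0.15 to -0.07). In SpdefKO_GC relative to SpdefKO_EC 0 to 2 were higher and 52 to 61 lower (-0.40 to -0.34). Between the genotype responses 3 to 16 were lower and 0 higher (-0.26 to -0.19). Among the other alternatives, 1 gene rose in SpdefKO_EC under DESeq2 size factors, upper quartiles, plain totals and no filter, 8 by the DESeq2 test and 0 in a fit of the groups compared; 1 fell with no filter and 0 in that fit. WT_GC over WT_EC gave 12 higher, 17 lower and a median of -0.0057 under upper quartiles, 11 and 17 under plain totals, and 4 higher without genes that share sequence. SpdefKO_GC over SpdefKO_EC gave 4 higher with a median of -0.24 under upper quartiles, and 4 with -0.22 under plain totals; these moved the median of all genes by 0.11 and 0.13. Between the responses 5 genes were lower under upper quartiles, 4 under plain totals and 7 with no filter. Apart from the shift in all genes, the cause was not tested. Alternatives were not run for the other pathway lists. Shares of all genes are not given for the fits that left out a library, so changes in their counts may not be particular to this set.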
